A study of Saccharomyces cerevisiae with 22 samples.

Results

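The 10 budding yeast genes of glucose repression described here were chosen by their systematic IDs from the 7126 entries of the deposited tables. They are the kinase gene SNF1 (YDR477W), the repressor genes MIG1 (YGL035C), MIG2 (YGL209W) and MIG3 (YER028C), the activator genes ADR1 (YDR216W) and CAT8 (YMR280C), and the target genes SUC2 (YIL162W), ADH2 (YMR303C), FBP1 (YLR377C) and PCK1 (YKR097W). All 10 passed the filter on low counts, as did 6278 entries in all. The 22 polyA RNA libraries came from strain W303 grown in a rich medium with 2% raffinose, to which 2% galactose was added for 4 h in every group, the controls included. In 6 libraries the cells lacked PDR3 and carried a multicopy plasmid that expresses PSD1 from the galactose-inducible GAL1-10 promoter (pdr3Δ PSD1). In 6 libraries PDR3 was intact and the plasmid was the same (PSD1). The plasmid held PSD1 with a V5 epitope tag behind the same promoter in 5 libraries (V5-PSD1), and it was empty in 5 (empty). PSD1 encodes the phosphatidylserine decarboxylase of mitochondria, and PDR3 encodes an activator of drug resistance genes. The deletion was not paired with an empty plasmid in the libraries used here, so its effect was seen only under PSD1 expression.

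Snf1, the yeast AMP-activated kinase, is active when glucose is scarce. It releases targets from the zinc-finger repressor Mig1, which acts with Mig2 and Mig3 through the Tup1-Cyc8 corepressor, and it turns on the activators Adr1 and Cat8. Targets include invertase (SUC2), the ethanol-oxidising alcohol dehydrogenase (ADH2) and the gluconeogenic enzymes fructose-1,6-bisphosphatase (FBP1) and phosphoenolpyruvate carboxykinase (PCK1). Raffinose and galactose are fermentable sugars that repress these genes less than glucose does.

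The libraries held 8152941 to 20839061 counts. PSD1 averaged 18150 counts per 1000000 (CPM) in pdr3Δ PSD1 cells, 15250 in PSD1 cells, 24680 in V5-PSD1 cells and 431 in empty-plasmid cells, and PDR3 had 1 to 3 counts in each deletion library (187.6, 81.8 and 84.9 CPM on average in PSD1, V5-PSD1 and empty-plasmid cells), as labelled. GAL1, a galactose enzyme gene, was high in all 4 groups (7310, 6917, 6294 and 11440 CPM in that order), with no library without galactose to compare. It was lower than in empty-plasmid cells by −0.64 ± 0.10, −0.72 ± 0.10 and −0.86 ± 0.10 on the log2 scale in the 3 PSD1-plasmid groups (adjusted p of 2.8e-05 or lower in edgeR's quasi-likelihood test), and its part in the results here was not tested. The first digit of the library numbers in the labels gives a series 5 (12 libraries, 3 a group) and a series 6 (10 libraries), and every group had both. The labels do not say whether replicates were separate cultures, so p-values measure the spread between libraries, which may be technical.

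Per transcript length, the 10 genes spanned a wide range. In empty-plasmid cells SNF1 stood at 139.9 ± 4.73 FPKM (fragments per kilobase, scaled to library size; SD, n = 5), MIG1 at 123 ± 9.47, SUC2 at 115 ± 30.7 and ADR1 at 114 ± 18.9. ADH2 followed at 88.7 ± 30.4, PCK1 at 35.7 ± 20.2, CAT8 at 29.8 ± 4.06, FBP1 at 29.6 ± 18.3, MIG2 at 13.3 ± 2.02 and MIG3 at 5.87 ± 0.31. Only 2 neighbours in this order had library ranges that did not overlap: SNF1 lay above MIG1, and MIG2 above MIG3. SNF1 exceeded 76.9% of the tested genes in these cells and MIG3 exceeded 5.2%. The order differed in one place at the top. SUC2 had the highest FPKM of the 10 in pdr3Δ PSD1 cells (347 ± 29.5), PSD1 cells (261 ± 59.8) and V5-PSD1 cells (299.9 ± 29.8), and ranked 3 in empty-plasmid cells. MIG3 was the lowest in all 4 groups.

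**Figure D1:**
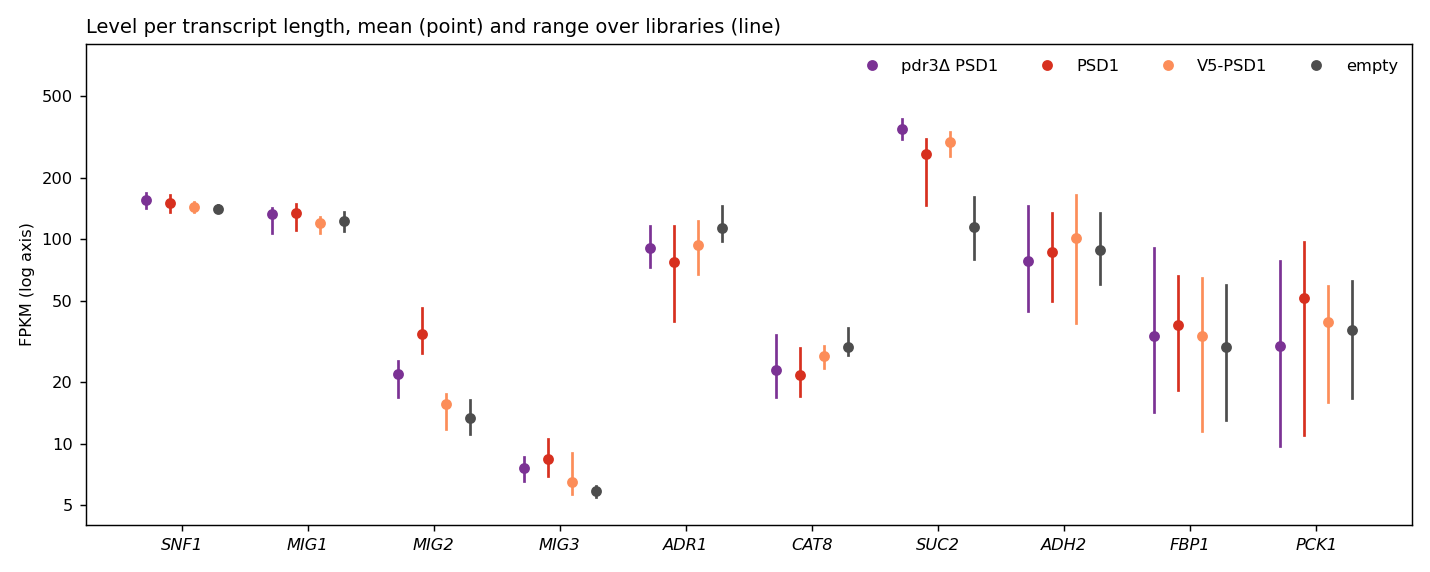
Level per transcript length (FPKM, log axis) of the 10 genes in the 4 groups; points are means and lines run over the libraries of a group. SUC2 in empty-plasmid cells, at 115 FPKM on average, sits below its 3 PSD1-plasmid groups, and the lines of ADH2, FBP1 and PCK1 are long and overlap between all groups.

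The test for each gene was edgeR's quasi-likelihood test on counts, 2-sided, with 1 model over all 22 libraries, library series as a term, and Benjamini-Hochberg adjustment over the 6278 genes; a gene rose or fell where its adjusted p was under 0.05. Fold changes are log2 values of the model with their standard error (SE). The 95% intervals are normal intervals from the SE and are slightly narrower than the test itself implies. Removal of PDR3 from PSD1 cells lowered 1 of the 10, MIG2, in a comparison where 0.414% of all genes tested passed. PSD1 against the empty plasmid raised MIG2, MIG3 and SUC2 and lowered ADR1 and CAT8, 5 of 10, where 56.6% of all genes passed. V5-PSD1 against empty raised SUC2 alone, where 3.03% passed. In pdr3Δ PSD1 against empty SNF1, MIG2, MIG3 and SUC2 rose, 4 of 10, where 47.5% passed. In PSD1 against V5-PSD1 cells MIG2 rose, 1 of 10, where 40.5% passed. The counts against the empty plasmid were thus near or below the share of all genes for PSD1 (5 of 10) and for pdr3Δ PSD1 (4 of 10), and they carry no information on the group of genes as such. The median fold change of the 10 was −0.08 for pdr3Δ PSD1 over PSD1, 0.31 for PSD1 over empty, 0.21 for V5-PSD1 over empty, 0.14 for pdr3Δ PSD1 over empty and 0.06 for PSD1 over V5-PSD1. The medians of all genes lay between 0.001 and 0.019. The empty-plasmid libraries enter 3 comparisons and the PSD1 libraries enter 3, so the comparisons are not independent of each other. Groups without any overlap are given below beside the share of all genes with the same pattern, which was 0.366% (lower) in pdr3Δ PSD1 against PSD1, 18.4% (higher) in PSD1 against empty, 3.78% (higher) in V5-PSD1 against empty, 16.5% (higher) in pdr3Δ PSD1 against empty and 9.84% (higher) in PSD1 against V5-PSD1. These are bulk cultures, in which a change in all cells cannot be told apart from a larger change in some of them.

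**Figure D2:**
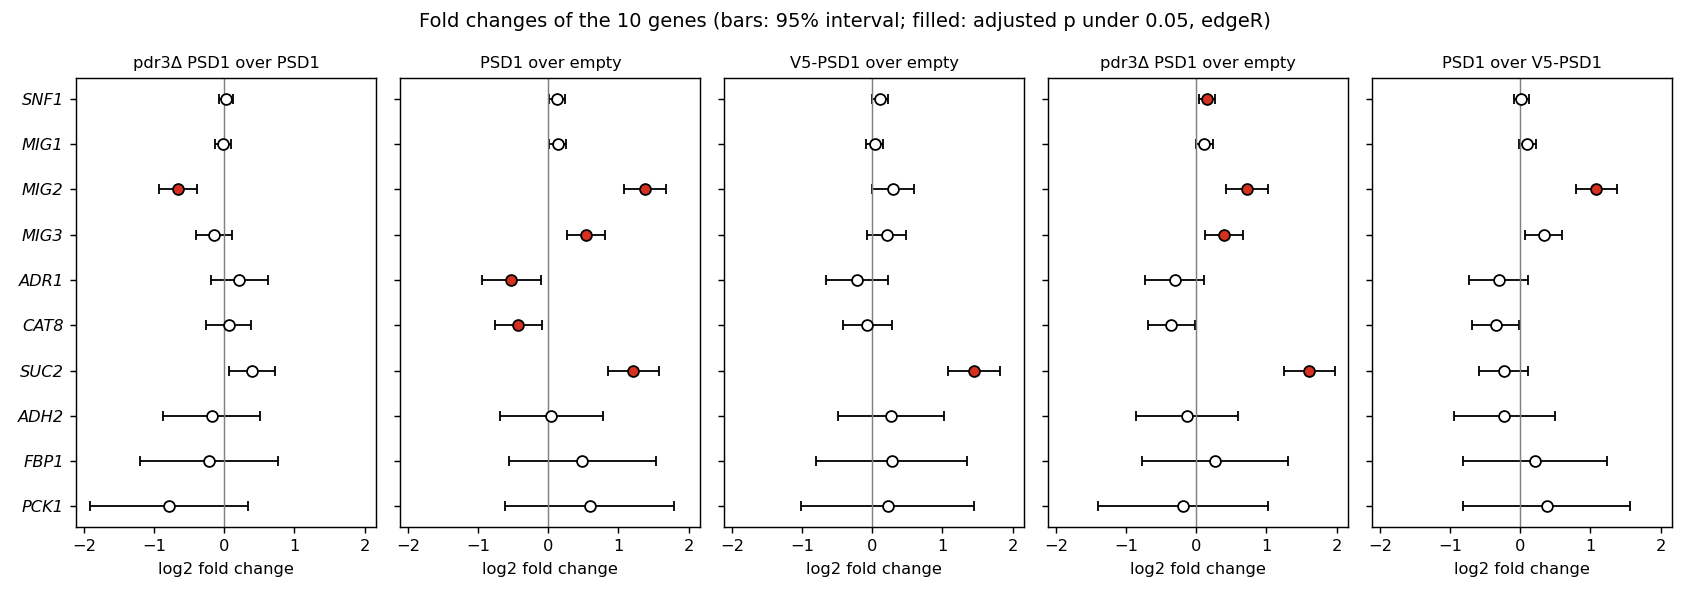
Log2 fold change of each gene in the 5 comparisons, with bars for the 95% interval; filled points passed an adjusted p of 0.05. MIG2 is filled in 4 panels and SUC2 in the 3 panels against the empty plasmid, and the bars of ADH2, FBP1 and PCK1 cross 0 in all 5.

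SNF1, which encodes the catalytic subunit of the kinase (gene body chrIV:1412373-1414274 (+) in R64, sacCer3, as for the genes that follow), differed little between groups. Its level ran from 254 to 299.5 CPM (median 287.5) in pdr3Δ PSD1 cells and from 245 to 299.7 (median 293) in PSD1 cells. It was 266, 267, 267, 285 and 287 CPM in V5-PSD1 cells and 273, 258, 242, 249 and 249 in empty-plasmid cells. In 5 of 6 deletion libraries SNF1 lay above every empty-plasmid library, and replicate 2 was within their range. The fold change of pdr3Δ PSD1 over empty was 0.15 ± 0.06 (adjusted p = 0.0292), a rise of 1.11-fold. It was 0.06 within series 5 and 0.24 within series 6. SNF1 no longer passed when empty replicate 3, 4 or 5 was left out, or deletion replicate 1, 3, 4 or 5 (adjusted p up to 0.107), and with RLE in place of TMM scaling (adjusted p = 0.061). SNF1 was at 0.12 ± 0.06 in PSD1 over empty (adjusted p = 0.0623; 0.0207 to 0.166 with 1 library left out, under 0.05 without PSD1 replicate 1 or 2, empty replicate 1 or deletion replicate 2), 0.11 ± 0.06 in V5-PSD1 over empty (0.358) and 0.03 ± 0.05 in pdr3Δ PSD1 over PSD1 (0.964).

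MIG1, the main repressor gene of the pathway (chrVII:431548-433062 (−)), passed in no comparison with library series as the term. It ran from 164 to 205 CPM (median 199.8) in pdr3Δ PSD1 cells, from 171 to 215 (median 196) in PSD1 cells, from 167 to 191 in V5-PSD1 cells and from 160.1 to 195 in empty-plasmid cells, so all 4 groups overlapped. The widest of its fold changes was 0.14 ± 0.06 in PSD1 over empty (adjusted p = 0.0683, 95% interval 0.01 to 0.26), the only one with an unadjusted p under 0.05, and DESeq2 called none. It passed there without PSD1 replicate 3, empty replicate 2 or deletion replicate 3 (lowest adjusted p 0.0189), and in pdr3Δ PSD1 over empty (0.12 ± 0.06, adjusted p = 0.128) without empty replicate 2 or deletion replicate 3 (lowest 0.0346). With the run of library numbers as a block, described below, MIG1 passed in PSD1 over empty (adjusted p = 0.0095) and in pdr3Δ PSD1 over empty (0.0259). With the series as the term it was −0.02 ± 0.06 in pdr3Δ PSD1 over PSD1, with an interval of −0.13 to 0.10.

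MIG2, the gene of a repressor related to Mig1 (chrVII:95858-97006 (+)), was the gene of the 10 that differed with PDR3. The stretch of its upstream region that holds the matches is shown because PDR3 was the gene deleted. Its capitals mark matches to words of the Mig1 GC box (GGGG after any of CC, CT, GC and GT) and of the element bound by Pdr1 and Pdr3 (TCCGCGGA, TCCGTGGA or TCCACGGA), searched on both strands of the 600 bases before the start codon. The sequence is from RefSeq R64 (sacCer3), chrVII:95475-95570, + strand, 5′ to 3′, from 383 to 288 bases before the start codon, with no annotated gene in it.
MIG2: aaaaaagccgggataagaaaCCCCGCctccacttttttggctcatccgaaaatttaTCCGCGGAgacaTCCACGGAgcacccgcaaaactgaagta
The capitals are 1 GC box on the other strand (CCCCGC) and then 2 Pdr1/Pdr3 words, which do not overlap. Of the 5999 upstream regions of that length, 1.98% held a Pdr1/Pdr3 word and 0.167% held 2 or more; among the 10 genes MIG2 alone had one. Of the 25 genes that fell with the deletion, 24 had such a region and 17 of these held a word (70.8%), against 1.94% of the tested genes; PDR3 itself and MIG2 are among the 17. A match is a description of letters, not of a bound site. The 25 genes were called in these same data and include MIG2 and PDR3, so the share is no independent evidence on MIG2. Whether Pdr3 acts on MIG2 directly was not tested.

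MIG2 ran from 17.9 to 29.2 CPM with a median of 24.2 in pdr3Δ PSD1 cells, and from 31.3 to 48.9 with a median of 35.65 in PSD1 cells. The V5-PSD1 libraries had 19.5, 16.95, 13.3, 19.5 and 19 CPM, and the empty-plasmid libraries 17.9, 12.7, 13.9, 15.2 and 12.05. All 6 PSD1 libraries were thus above every library of the other 3 groups. The 6 deletion libraries lay between, below all PSD1 and just above all empty-plasmid libraries, and overlapped with V5-PSD1. Of all genes tested, 18.4% had every PSD1 library above all empty-plasmid libraries, and 9.84% above all V5-PSD1 libraries. Every deletion library was above all empty-plasmid libraries for 16.5% and below all PSD1 libraries for 0.366%. The share above all 3 other groups at once was not counted. MIG2 was 2.6-fold higher in PSD1 than in empty-plasmid cells (1.38 ± 0.15, adjusted p = 4.28e-07), with 1.29 within series 5 and 1.48 within series 6. It was higher in pdr3Δ PSD1 than in empty-plasmid cells as well (0.73 ± 0.15, adjusted p = 0.000543). Those groups differ in both PDR3 and the plasmid, and the part of each was not tested. Between pdr3Δ PSD1 and PSD1 cells MIG2 fell by 0.66 on the log2 scale (SE 0.14, 95% interval −0.93 to −0.38, adjusted p = 0.033), with −0.72 within series 5 and −0.59 within series 6. In V5-PSD1 over empty the value was 0.30 ± 0.16 (adjusted p = 0.338), and PSD1 over V5-PSD1 was 1.08 ± 0.15 (adjusted p = 1.76e-05). PSD1 mRNA itself was lower in PSD1 than in V5-PSD1 cells (−0.69 ± 0.26, adjusted p = 0.0383), and its part in the MIG2 result was not tested.

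The call between pdr3Δ PSD1 and PSD1 cells was the least firm of these. The direction held without each of the 22 libraries, but leaving out PSD1 replicate 2, 4 or 6, or deletion replicate 1, 2, 4, 5 or 6, ended the call of MIG2 (adjusted p of 0.0569 to 0.129, fold changes of −0.69 to −0.55). It also did not pass with only the 2 groups in the model (adjusted p = 0.16), with the replicate number as a block (−0.65, adjusted p = 0.0955) or within a series alone (0.929 in series 5 and 0.165 in series 6), and passed with DESeq2 (0.00085).

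**Figure D3:**
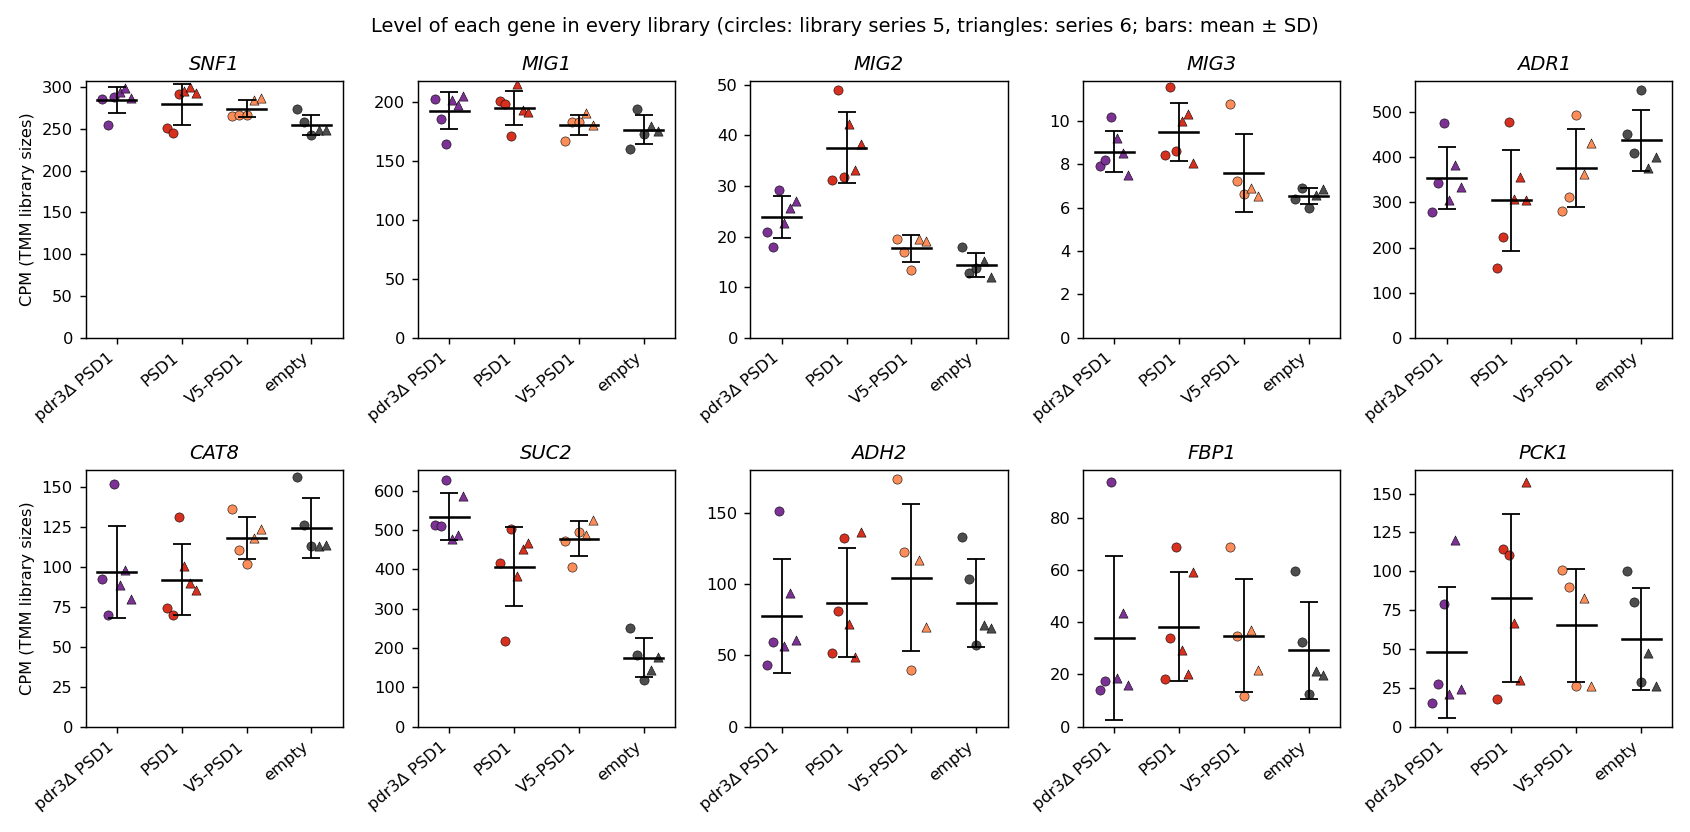
CPM of each gene in every library, in the 4 groups, with bars for mean ± SD; circles are library series 5 and triangles series 6. The 6 PSD1 libraries of MIG2, at 31.3 CPM and above, sit clear of the other groups, and SUC2 in the empty-plasmid group, at 250.3 CPM and below, sits under all PSD1-plasmid libraries but 1.

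MIG3, a further Mig1-type repressor gene (chrV:210692-211876 (−)), was the lowest of the 10 and rose in both groups with untagged PSD1. It ran from 7.5 to 10.2 CPM (median 8.34) in pdr3Δ PSD1 cells and from 8.03 to 11.5 (median 9.29) in PSD1 cells. The V5-PSD1 libraries had 10.8, 7.2, 6.63, 6.88 and 6.51 CPM, against 6.4, 6.88, 5.98, 6.6 and 6.84 in empty-plasmid libraries. Every library of both untagged PSD1 groups lay above every empty-plasmid library. This pattern was met by 18.4% of all genes for PSD1 cells and by 16.5% for pdr3Δ PSD1 cells. V5-PSD1 replicate 1 stood apart from its own group. The counts behind these values were 58 to 164 a library. MIG3 was 0.54 ± 0.14 in PSD1 over empty (adjusted p = 0.00224; 0.53 and 0.48 within series 5 and 6) and 0.40 ± 0.14 in pdr3Δ PSD1 over empty (adjusted p = 0.0212; 0.41 and 0.32). The second of these did not pass when empty replicate 3, deletion replicate 3 or deletion replicate 4 was left out (adjusted p up to 0.0575). In PSD1 over V5-PSD1 it was 0.33 ± 0.14 (adjusted p = 0.0569), and it passed without V5-PSD1 replicate 1 (0.48, adjusted p = 0.00335) or PSD1 replicate 1, 3 or 6. It also passed with the library set block (0.38, adjusted p = 0.0312), the replicate block (0.37, 0.0461), DESeq2 (0.34, 0.0404) and limma on log2(FPKM + 1) (0.33, 0.0287) or log2(FPKM + 0.1) (0.37, 0.0276). MIG3 did not differ past the threshold between pdr3Δ PSD1 and PSD1 cells (−0.14 ± 0.13, 95% interval −0.40 to 0.11).

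ADR1 at chrIV:895035-899006 (+) and CAT8 at chrXIII:827028-831329 (−), the genes of 2 activators of growth on non-fermentable carbon, were lower in PSD1 than in empty-plasmid cells. ADR1 ran from 279 to 475 CPM (median 338) in pdr3Δ PSD1 cells and from 154.5 to 477 (median 307) in PSD1 cells. It was 281, 311, 493.2, 364 and 432 CPM in V5-PSD1 cells and 452, 409, 549, 377 and 400.2 in empty-plasmid cells. In 5 of 6 PSD1 libraries ADR1 was below every empty-plasmid library, and PSD1 replicate 3 was within their range. The fold change was −0.52 ± 0.22 (adjusted p = 0.0459), with −0.76 within series 5 and −0.27 within series 6. The call for ADR1 did not survive the removal of any 1 of 14 libraries: PSD1 replicates 1, 2, 4 and 6, V5-PSD1 replicates 2, 4 and 5, empty replicates 1, 2, 3 and 5 and deletion replicates 2, 5 and 6 (adjusted p up to 0.119). With only the 2 groups in the model it did not pass either (adjusted p = 0.0837).

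CAT8 ran from 69.5 to 152 CPM (median 90.4) in pdr3Δ PSD1 cells and from 70 to 131 (median 87.8) in PSD1 cells. It was 136, 110.3, 102, 118 and 124 CPM in V5-PSD1 cells and 156, 126, 113, 113 and 113 in empty-plasmid cells. Again 5 of 6 PSD1 libraries were below every empty-plasmid library and replicate 3 was not. CAT8 was at −0.42 ± 0.17 in PSD1 over empty (adjusted p = 0.0412; −0.56 and −0.30 within series 5 and 6), a call that ended when PSD1 replicate 1, 2, 5 or 6 was left out, or empty replicate 1, 2, 4 or 5 (adjusted p up to 0.116). It was −0.36 ± 0.17 in pdr3Δ PSD1 over empty (adjusted p = 0.0938) and passed without deletion replicate 3 (−0.54, adjusted p = 0.00616) and with limma on log2(FPKM + 1) (−0.39, 0.0391). In PSD1 over V5-PSD1 CAT8 was at −0.35 ± 0.17 (adjusted p = 0.108) and passed without PSD1 replicate 3 or deletion replicate 3 (lowest 0.0248) and with the run of library numbers as a block (0.00552), and ADR1 was at −0.31 ± 0.22 (0.272) and passed without PSD1 replicate 3 (0.0469). ADR1 in pdr3Δ PSD1 over empty was −0.31 ± 0.22 (adjusted p = 0.254). Neither activator gene passed in V5-PSD1 over empty (ADR1 −0.22 ± 0.23, CAT8 −0.07 ± 0.18) or in pdr3Δ PSD1 over PSD1 (ADR1 0.22 ± 0.21, CAT8 0.07 ± 0.16).

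SUC2, the invertase gene and a classic Mig1 target (chrIX:37385-38983 (+)), rose in all 3 groups that expressed PSD1. Its upstream stretch is shown because it holds 3 GC box words, in capitals; 27.8% of upstream regions held at least 1, and so did 7 of the 10 genes. It is RefSeq R64 (sacCer3), chrIX:36866-37005, + strand, from 519 to 380 bases before the start codon, and it overlaps the annotated YIL163C on the other strand.
SUC2: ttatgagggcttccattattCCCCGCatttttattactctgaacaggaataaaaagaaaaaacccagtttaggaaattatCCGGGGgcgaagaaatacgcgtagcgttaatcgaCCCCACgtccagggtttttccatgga
SUC2 ran from 477 to 628 CPM (median 513) in pdr3Δ PSD1 cells and from 219 to 503 (median 433) in PSD1 cells. The V5-PSD1 libraries had 471, 406, 496, 489 and 526.4 CPM, against 250.3, 182, 118.5, 145 and 177 in empty-plasmid libraries. All deletion and V5-PSD1 libraries lay above every empty-plasmid library, a pattern met by 16.5% and 3.78% of all genes in that order. So did 5 of 6 PSD1 libraries, and PSD1 replicate 2, at 219 CPM, lay below empty replicate 1.

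The rise of SUC2 over empty was 3.05-fold in pdr3Δ PSD1 cells (1.61 ± 0.19, adjusted p = 1.37e-06), 2.32-fold in PSD1 cells (1.22 ± 0.18, adjusted p = 1.67e-05) and 2.73-fold in V5-PSD1 cells (1.45 ± 0.19, adjusted p = 4.48e-05). Within series 5 the values were 1.55, 1.01 and 1.28, and within series 6 they were 1.68, 1.43 and 1.66 in the same order. The 3 calls held without each of the 22 libraries; without PSD1 replicate 2 the rise in PSD1 cells was 1.36. Between pdr3Δ PSD1 and PSD1 cells SUC2 differed by 0.40 ± 0.17 (adjusted p = 0.863), and between PSD1 and V5-PSD1 cells by −0.24 ± 0.18 (95% interval −0.59 to 0.11, adjusted p = 0.305). SUC2 thus passed in V5-PSD1 cells, where MIG2 and MIG3 did not; a difference between the genes was not tested. The 3 genes with the most similar pattern of log2 CPM over the 22 libraries were HXT7 (r = 0.926), a high-affinity hexose transporter gene, APJ1 (0.901), a chaperone gene, and SSA1 (0.892), a cytosolic Hsp70 gene. HXT7 averaged 2396 CPM in pdr3Δ PSD1, 2351 in PSD1, 2733 in V5-PSD1 and 1032 in empty-plasmid cells. SSA1 averaged 6544, 6835, 5861 and 1990 CPM in that order. HXT7 and SSA1 share reads with the near-identical copies HXT6 and SSA2, so their values are uncertain.

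ADH2, FBP1 and PCK1, whose products act in ethanol use and gluconeogenesis, rose or fell in none of the 5 comparisons; none had an unadjusted p under 0.05 in edgeR's test, and DESeq2 called none. ADH2 lies at chrXIII:873291-874337 (−), FBP1 at chrXII:873746-874792 (−) and PCK1 at chrXI:631152-632801 (+). Their upstream stretches are shown for the words of their activators. Capitals mark the carbon source-responsive element of Cat8 and Sip4 (CGG, then 6 bases of any kind, then GGA, in 8.33% of upstream regions), the core of the Adr1 site (TTGGAG or TTGGGG, in 32.1%) and the GC box. They are RefSeq R64 (sacCer3): ADH2 chrXIII:874589-874836, − strand; FBP1 chrXII:875193-875316, − strand; and PCK1 chrXI:630570-630701, + strand. None overlaps an annotated gene.
ADH2: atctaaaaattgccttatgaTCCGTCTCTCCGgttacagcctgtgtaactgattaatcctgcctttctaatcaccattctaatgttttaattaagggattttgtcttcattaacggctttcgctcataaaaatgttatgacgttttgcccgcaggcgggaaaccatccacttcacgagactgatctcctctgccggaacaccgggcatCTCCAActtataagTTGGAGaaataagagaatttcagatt
FBP1: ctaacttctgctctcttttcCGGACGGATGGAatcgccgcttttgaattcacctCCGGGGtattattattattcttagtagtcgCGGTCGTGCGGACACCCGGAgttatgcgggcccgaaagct
PCK1: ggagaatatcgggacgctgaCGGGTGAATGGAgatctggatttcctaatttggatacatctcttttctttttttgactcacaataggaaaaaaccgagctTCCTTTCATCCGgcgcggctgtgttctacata
ADH2 had 1 Cat8/Sip4 word and, nearer the gene, 2 Adr1 words on opposite strands that point away from each other. FBP1 had 3 Cat8/Sip4 words, 2 of which overlap, with a GC box between the first and these, and PCK1 had 2 Cat8/Sip4 words. FBP1 had 1 more GC box outside the printed stretch, and the only GC box of PCK1 lay outside its printed stretch. These 3 were the genes of the 10 with a Cat8/Sip4 word.

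The 3 genes varied more between libraries of 1 group than between groups. ADH2 ran from 43.3 to 152 CPM (median 60.1) in pdr3Δ PSD1 cells and from 49.2 to 137 (median 76.5) in PSD1 cells. It was 174, 122.5, 39.7, 117 and 69.9 CPM in V5-PSD1 cells and 133, 103.6, 57.5, 71.4 and 69.6 in empty-plasmid cells. The highest library of a group exceeded its lowest by 2.32-fold in empty-plasmid cells to 4.38-fold in V5-PSD1 cells. ADH2 was at −0.18 ± 0.35 in pdr3Δ PSD1 over PSD1, 0.05 ± 0.37 in PSD1 over empty, 0.27 ± 0.39 in V5-PSD1 over empty and −0.13 ± 0.37 in pdr3Δ PSD1 over empty (adjusted p of 0.747 or higher). ADH1, which encodes the fermentative enzyme, is 88.8% identical to ADH2 over 1047 coding bases and averaged 2125, 2715, 1868 and 1650 CPM in pdr3Δ PSD1, PSD1, V5-PSD1 and empty-plasmid cells. ADH1 rose in PSD1 over empty (0.72 ± 0.13, adjusted p = 8.51e-05). Reads may be shared between them, so the value of ADH2 is uncertain.

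FBP1 ran from 13.9 to 93.8 CPM (median 18) in pdr3Δ PSD1 cells and from 18.1 to 68.7 (median 31.7) in PSD1 cells. It was 68.7, 34.8, 11.8, 37 and 21.7 CPM in V5-PSD1 cells and 59.5, 32.5, 12.5, 21.4 and 19.7 in empty-plasmid cells. All 4 groups overlapped, and the highest over the lowest library was 3.8-fold in PSD1 cells to 6.76-fold in pdr3Δ PSD1 cells. FBP1 was at −0.22 ± 0.50, 0.49 ± 0.53, 0.28 ± 0.55 and 0.27 ± 0.53 in pdr3Δ PSD1 over PSD1, PSD1 over empty, V5-PSD1 over empty and pdr3Δ PSD1 over empty. In the last of these the sign turned without deletion replicate 3 (−0.35).

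PCK1 ran from 15.2 to 120.3 CPM (median 25.9) in pdr3Δ PSD1 cells and from 17.4 to 158 (median 88.6) in PSD1 cells. It was 100.7, 90.2, 26.2, 82.8 and 26 CPM in V5-PSD1 cells and 100, 80.2, 28.5, 47.1 and 26.1 in empty-plasmid cells. Its highest over its lowest library was 9.04-fold in PSD1 cells and 7.91-fold in pdr3Δ PSD1 cells, the widest of the 10 there. In V5-PSD1 and empty-plasmid cells it was 3.87-fold and 3.83-fold, and FBP1 was wider. The difference of pdr3Δ PSD1 from PSD1 cells was −0.78 ± 0.58 with a 95% interval of −1.91 to 0.34 (adjusted p = 0.935), so a change of over 2-fold in PCK1 lies within the interval. For FBP1 the interval in that comparison was −1.20 to 0.76, and for ADH2 it was −0.87 to 0.51. In PSD1 over empty PCK1 was at 0.59 ± 0.61 (interval −0.61 to 1.80).

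**Figure D4:**
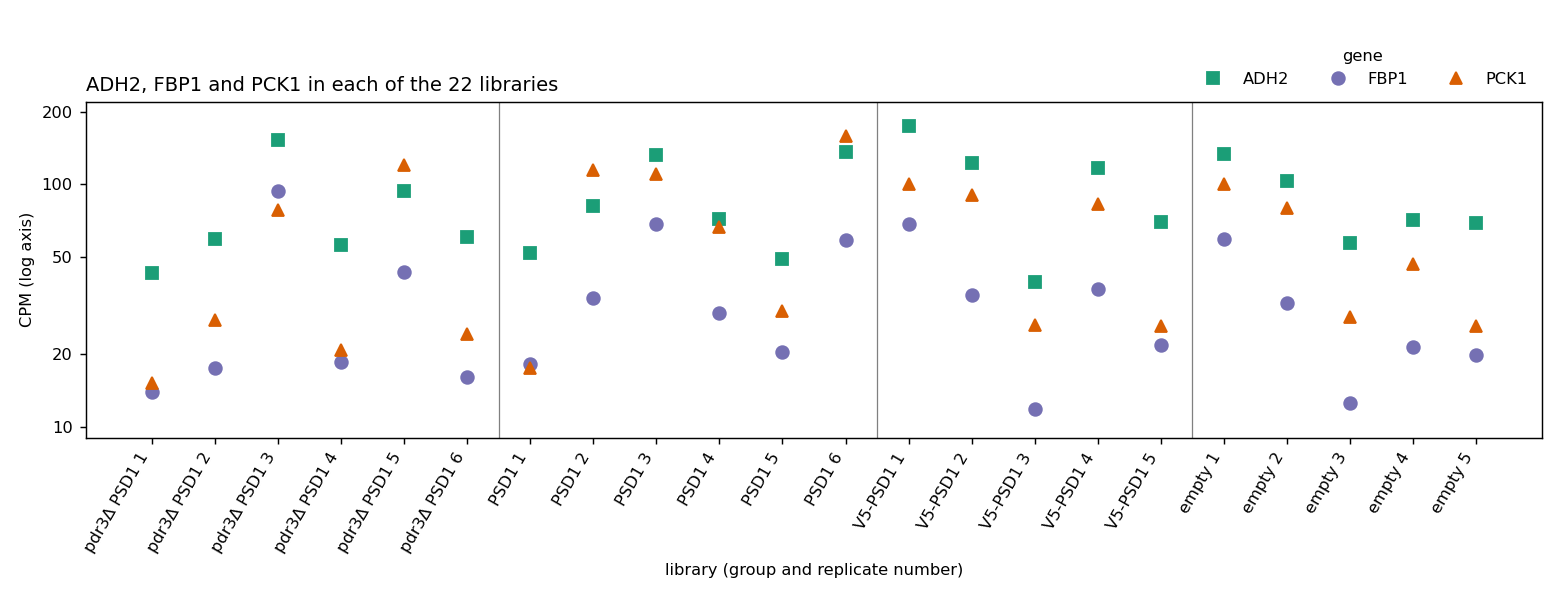
CPM (log axis) of ADH2, FBP1 and PCK1 in each of the 22 libraries, by group and replicate number. The 3 genes go up and down together from library to library, and each group holds high and low libraries; empty replicate 1 and V5-PSD1 replicate 1 are the highest of their groups for all 3.

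The 3 genes moved together from library to library. Over the 22 libraries log2 CPM of ADH2 and FBP1 had Pearson r = 0.94 and Spearman rho = 0.937 (permutation p = 1e-05 each, the smallest that 100000 permutations can give). For ADH2 and PCK1 r was 0.862 and rho 0.806 (permutation p = 1e-05 and 3e-05), and for FBP1 and PCK1 r was 0.859 and rho 0.809 (permutation p = 1e-05 and 2e-05). Adjusted over the 45 pairs of the 10 genes, these 3 permutation p-values were 0.00015 for r and 0.00045 for rho. Without the 2 libraries farthest from the median r was 0.928, 0.882 and 0.902. Within series 5 it was 0.951, 0.885 and 0.844, within series 6 it was 0.899, 0.866 and 0.964, and with group means removed it was 0.97, 0.879 and 0.868. The permutations shuffled all 22 libraries freely, so the p-values do not set aside a shared group or series. In these data MLS1, the malate synthase gene of the glyoxylate cycle, was among the 3 most similar genes for each: r over 22 libraries was 0.916 with ADH2, 0.923 with FBP1 and 0.95 with PCK1. The others were GDH3 (0.908), a glutamate dehydrogenase gene, and YAT1 (0.898), a carnitine acetyltransferase gene, for ADH2. For FBP1 they were GDH3 (0.942) and the acetyl-CoA synthetase gene ACS1 (0.915), and for PCK1 the isocitrate lyase gene ICL1 (0.96) and YAT1 (0.953).

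Some of this variation went with runs of library numbers. Series 5 falls into 3 runs of 4 consecutive numbers, each with 1 library of every group. The earliest run holds deletion replicate 3, PSD1 replicate 3, V5-PSD1 replicate 1 and empty replicate 1. Within series 5 these libraries had the highest ADH2, FBP1 and CAT8 of their group in all 4 groups, a pattern met by 7.17% of the 6278 genes. They had the lowest MIG1 in all 4 groups (5.69% of genes). In the last run CAT8 was the lowest in all 4 groups (7.71% of genes). What the runs stand for is not given in the sources used here, and their part in the group comparisons was tested only by taking the run, or the replicate in series 6, as a term in place of the series. With that term CAT8 was at −0.43 ± 0.09 in PSD1 over empty (adjusted p = 0.000927) and −0.37 ± 0.09 in pdr3Δ PSD1 over empty (0.00341), and MIG1 at 0.14 ± 0.04 (0.0095) and 0.12 ± 0.04 (0.0259). In PSD1 over V5-PSD1 CAT8 passed (−0.35 ± 0.09, adjusted p = 0.00552), as did MIG3 (0.38 ± 0.14, 0.0312), and SNF1 passed in PSD1 over empty (0.12 ± 0.05, 0.0425). MIG2 between pdr3Δ PSD1 and PSD1 cells was at −0.67 ± 0.14 and passed (adjusted p = 0.0336), but not with the replicate number as the block (0.0955), which joins the same libraries of these 2 groups. With the run as the term ADH2, FBP1 and PCK1 passed in no comparison. Of the 45 pairs of the 10 genes, 9 passed by r, 11 by rho and 8 by both. SNF1 and SUC2 passed by r (0.718, adjusted permutation p = 0.0012) but not by rho (0.516, 0.0569). Their r was 0.623 with group means removed. The 8 include the 3 pairs above. The others were MIG2 and MIG3 (r = 0.753), ADR1 and CAT8 (0.633), CAT8 and ADH2 (0.591), MIG1 and ADR1 (−0.562) and MIG1 and CAT8. With group means removed r was 0.365, 0.522, 0.641 and −0.428 for the first 4 of these, and CAT8 and ADH2 were at 0.695 within series 5 and 0.161 within series 6. MIG1 and CAT8 were opposed, with r = −0.732 and rho = −0.741 (permutation p = 8e-05 each, 0.00081 and 0.00072 over the 45 pairs). Without the 2 farthest libraries r was −0.611, within series 5 and 6 it was −0.793 and −0.632, and with group means removed −0.611. The permutations ignored group, series and run. Their p-values for these pairs therefore do not set aside a shared run or group.

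Beyond the 10 genes, 54 other genes of the pathway in 7 lists were counted, all tested. In pdr3Δ PSD1 over PSD1 none of the 54 rose and none fell in edgeR's test (0.0159% and 0.398% of all genes); 2 had an unadjusted p under 0.05 and DESeq2 called 0. In V5-PSD1 over empty 3 rose and none fell (2.53% and 0.494% of all genes), with 10 at an unadjusted p under 0.05 and 4 called by DESeq2. In PSD1 over empty 14 rose and 7 fell (29.7% and 26.9% of all genes), in pdr3Δ PSD1 over empty 15 rose and 6 fell (26.1% and 21.4%), and in PSD1 over V5-PSD1 9 rose and 6 fell (20.3% and 20.1%). In these 3 comparisons the rises were near the share of all genes, so their counts say nothing particular of the pathway. The falls were fewer than the share of all genes, and this difference was not tested.

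The sugar kinase and alternative sugar genes had the highest median of the 7 lists in the 3 comparisons against the empty plasmid, though not in pdr3Δ PSD1 over PSD1 (−0.01) or in PSD1 over V5-PSD1 (0.32 against 0.33 for the fatty acid list). All 5 rose in pdr3Δ PSD1 over empty and in PSD1 over empty, with list medians of 0.84 and 0.86, against 0.02 for all genes in both, and 3 rose in V5-PSD1 over empty. Of all genes 26.1%, 29.7% and 2.53% rose in these comparisons in that order. HXK1, the gene of a hexokinase that is repressed by glucose, averaged 1929 CPM in pdr3Δ PSD1, 1614 in PSD1, 1066 in V5-PSD1 and 395 in empty-plasmid cells. It was 2.29 ± 0.11, 2.03 ± 0.11 and 1.43 ± 0.11 over empty in the 3 PSD1-plasmid groups (adjusted p of 6.92e-08 or lower). GLK1, the glucokinase gene, was at 0.84 ± 0.18 and 0.89 ± 0.18 in pdr3Δ PSD1 and PSD1 over empty, and its paralog EMI2 at 0.85 ± 0.07 and 0.86 ± 0.07. MAL32, of the same list, was at 0.66 ± 0.11 and 0.43 ± 0.11 in that order. In PSD1 over V5-PSD1 HXK1 (0.60 ± 0.11) and EMI2 (0.315 ± 0.07) rose, where 20.3% of all genes rose. EMI2 and MAL31, a maltose transporter gene, also rose in V5-PSD1 over empty (0.55 ± 0.07 and 0.39 ± 0.09), and MAL31 passed the threshold no more when V5-PSD1 replicate 1 or 4 was left out, or empty replicate 3 or 4 (adjusted p up to 0.0727). The pairs HXK1 and HXK2 and GLK1 and EMI2 are similar copies, so their values carry some uncertainty.

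Among the corepressors and other repressors, TUP1 and CYC8, the partners of Mig1, fell and NRG1, a further repressor gene, rose in both groups with untagged PSD1. TUP1 was at −0.30 ± 0.08 in pdr3Δ PSD1 over empty and −0.43 ± 0.08 in PSD1 over empty, CYC8 at −0.27 ± 0.09 and −0.43 ± 0.09, and NRG1 at 0.42 ± 0.10 and 0.51 ± 0.10. The Snf1 complex and its regulators had 1 of 11 higher and 1 lower in pdr3Δ PSD1 over empty, and 1 higher and 2 lower in PSD1 over empty. Of all genes 26.1% rose and 21.4% fell in the first comparison, and 29.7% rose and 26.9% fell in the second. SIP2, a beta subunit gene of the kinase, rose (0.63 ± 0.12 and 0.69 ± 0.12), and SAK1, the gene of an upstream kinase, fell (−0.23 ± 0.08 and −0.35 ± 0.08). ELM1, a further upstream kinase gene, fell in PSD1 over empty (−0.28 ± 0.08). HXK2, the main hexokinase gene on glucose, was lower in PSD1 than in V5-PSD1 cells (−0.44 ± 0.11, adjusted p = 0.00343) and did not pass in PSD1 over empty (−0.24 ± 0.11, adjusted p = 0.0728). In the glucose-sensing branch STD1, a regulator of the repressor Rgt1, rose (0.33 ± 0.09 and 0.40 ± 0.09) and RGT1 fell (−0.28 ± 0.09 and −0.35 ± 0.09) in the same order. SNF3, a glucose sensor gene, rose in pdr3Δ PSD1 over empty (0.31 ± 0.11), a call that ended without empty replicate 3 or 5, and without deletion replicate 3 or 4 (adjusted p up to 0.0714). SAK1 did not pass in pdr3Δ PSD1 over empty when empty replicate 1, empty replicate 3 or deletion replicate 1 was left out (adjusted p up to 0.0602). In PSD1 over V5-PSD1 SIP2 (0.47 ± 0.12), STD1 (0.32 ± 0.09) and NRG1 (0.34 ± 0.10) rose. TUP1 (−0.33 ± 0.08) and CYC8 (−0.26 ± 0.09) fell there. Of all genes 20.3% rose and 20.1% fell in that comparison. The call of CYC8 ended there without PSD1 replicate 1 or 2, or V5-PSD1 replicate 3 or 5 (adjusted p up to 0.068).

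Of 7 other activators of non-fermentable growth, GSM1 and ERT1 fell in pdr3Δ PSD1 over empty (−0.56 ± 0.08 and −0.44 ± 0.07) and in PSD1 over empty (−0.63 ± 0.08 and −0.37 ± 0.07), and none rose. Among all genes 21.4% and 26.9% fell, and 26.1% and 29.7% rose, in these comparisons in that order. In PSD1 over V5-PSD1, 3 of the 7 fell, where 20.1% of all genes fell. They were GSM1 (−0.43 ± 0.08), ERT1 (−0.24 ± 0.07) and HAP4. HAP4, the activator of respiration genes, fell in this comparison alone (−0.33 ± 0.13, adjusted p = 0.0449). It did not pass when any 1 of 13 libraries was left out (adjusted p up to 0.125): PSD1 replicates 1, 2, 4 and 6, V5-PSD1 replicates 1, 3, 4 and 5, empty replicates 2, 3 and 5 and deletion replicates 2 and 5. Of 13 gluconeogenic, glyoxylate and acetate genes, 2 rose in pdr3Δ PSD1 over empty (26.1% of all genes) and 3 in PSD1 over empty (29.7%), and none fell. The 2 were IDP2, a cytosolic isocitrate dehydrogenase gene (0.73 ± 0.25 and 0.82 ± 0.25 in that order), and MDH2, the cytosolic malate dehydrogenase gene (0.61 ± 0.22 and 0.80 ± 0.22). In pdr3Δ PSD1 over empty the call of IDP2 ended when empty replicate 2, empty replicate 5 or deletion replicate 3 was left out (adjusted p up to 0.0923). That of MDH2 ended with empty replicate 1, 2 or 5 left out, and with deletion replicate 2 (up to 0.0855). MDH2 was also higher in PSD1 than in V5-PSD1 cells (0.80 ± 0.22). CAT2, a carnitine acetyltransferase gene, was the other in PSD1 over empty (0.87 ± 0.36, adjusted p = 0.0456) and did not pass when any 1 of 12 libraries was left out (adjusted p up to 0.112): PSD1 replicates 3, 4 and 6, V5-PSD1 replicates 2, 4 and 5, empty replicates 2 to 5 and deletion replicates 4 and 6. ICL1 and MLS1, the key genes of the glyoxylate cycle, were at 0.41 ± 0.51 and 0.52 ± 0.66 in PSD1 over empty and did not pass.

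Of 8 genes listed under fatty acid oxidation and glycerol, 4 rose in pdr3Δ PSD1 over empty and 3 in PSD1 over empty, and none fell. In these comparisons 26.1% and 29.7% of all genes rose, and 21.4% and 26.9% fell, in that order. POT1, the peroxisomal thiolase gene, was at 1.03 ± 0.24 and 1.08 ± 0.24, and SPS19, a dienoyl-CoA reductase gene, at 0.96 ± 0.20 and 0.89 ± 0.20. ETR1, a mitochondrial enoyl reductase gene, was at 0.68 ± 0.09 and 0.79 ± 0.09. ETR1 is counted in this list, but its enzyme acts in fatty acid synthesis and not in oxidation. POX1, the acyl-CoA oxidase gene, passed in pdr3Δ PSD1 over empty (1.17 ± 0.37, adjusted p = 0.014) and not in PSD1 over empty (0.80 ± 0.37, adjusted p = 0.072). Without deletion replicate 3 POX1 was at 0.61 (adjusted p = 0.0779). POT1, SPS19 and ETR1 were also higher in PSD1 than in V5-PSD1 cells (1.01 ± 0.24, 0.77 ± 0.20 and 0.49 ± 0.09), and in V5-PSD1 over empty none of the 8 passed.

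**Figure D5:**
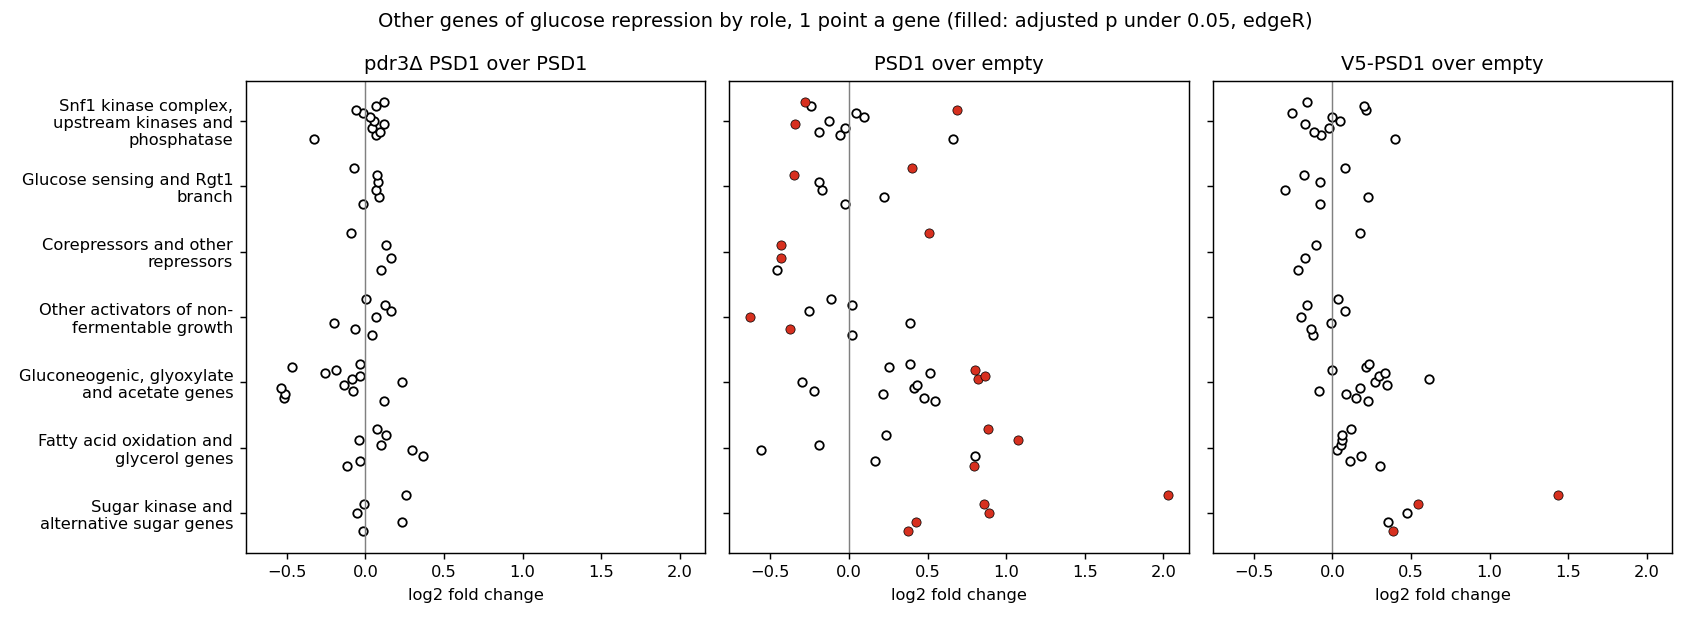
Log2 fold change of the 54 other pathway genes by list, 1 point a gene, in 3 comparisons; filled points passed an adjusted p of 0.05. No point is filled in pdr3Δ PSD1 over PSD1, and the sugar kinase list, with HXK1 at 2.03, lies to the right of 0 as a whole in PSD1 over empty.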

How the data were processed

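PolyA RNA libraries were made with RNeasy columns and NeoPrep, per the labels' protocols. The authors deposited a table of expected counts per gene, here whole numbers, and a table of log2 values, which the values show to be log2 of FPKM plus 1. Tools listed without roles in the submitters' processing notes are RSEM 1.3.0, STAR 2.5.3a and SAMtools 1.3, with build sacCer3. Annotation and strand setting were not given in the sources used, so overlapping or antisense genes cannot be told apart (no annotated gene overlaps any of the 10). Columns were joined to samples by library number; in 2 the replicate number differed from the label. Of 7126 entries 6048 matched R64; the rest held 1.68% to 3.05% of a library's counts. In 1594 gene-by-library values a count of 0 had an FPKM above 0.

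Counts were filtered with filterByExpr, scaled with TMM and tested with edgeR 4.0.16 in R 4.3.3 (prior count 2 for log2 CPM). The edgeR script was checked on simulated data. No replicates were duplicates (lowest chi-square per degree of freedom 14.69). The labels do not say that a shared replicate number marks a shared culture or day, and not every same-numbered pair correlated over 0.1, so the model has no replicate block. Alternatives were DESeq2 1.42.0, RLE scaling, PSD1 left out, no filter, 2 groups only, no series term, a replicate block, a library set block, limma 3.58.1 on log2(FPKM + 1) and log2(FPKM + 0.1), each series alone, and each of the 22 libraries left out.

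The 10 genes, lists and tests were chosen with earlier results of these data known. Named by rule were all 10 genes, up to 4 passing genes of each list with the largest fold change, and for each target gene the 3 most similar genes. ICL1, MLS1, HXK2 and POX1 in comparisons where they did not pass were named after their values were seen. Upstream regions came from the R64 genome.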

Additional observations from a re-analysis of the deposited data

Results flagged for a closer look

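Of the 40 sets of values (10 genes in 4 groups), 4 had a library far from the rest by Dixon's test at the 95% level, where chance alone marks about 1 in 20. SNF1 was lowest in deletion replicate 2, at 254.2 CPM, with the other deletion libraries at 285.3 to 299.5. MIG3 was highest in V5-PSD1 replicate 1, at 10.79 CPM, against 6.511 to 7.2 in the rest of that group. CAT8 and FBP1 were both highest in deletion replicate 3, at 151.7 CPM against 69.54 to 98.06 and at 93.81 CPM against 13.89 to 43.57. No fold change of the 10 genes differed past the threshold between series 6 and series 5 (lowest adjusted p of 0.744 in edgeR's test of the interaction).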

How the results depend on the processing

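The 12 alternatives gave 600 fold changes of the 10 genes, of which 549 kept direction and call, 17 lost and 15 gained a call and 19 turned in sign; leaving out 1 library gave 1100, of which 1023 kept both, 40 lost and 17 gained a call and 20 turned in sign. None that turned in sign was called. The cause of these differences was not tested, except that a single series or 2 groups hold fewer libraries.

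For pdr3Δ PSD1 over PSD1, 0 of the 10 were called with only the 2 groups in the model, with the replicate block and within series 5 or series 6 alone, and 0 to 1 with 1 library left out (0 without any of the 8 libraries named for MIG2). For PSD1 over empty 2 were called within series 5, and 3 to 6 with 1 library left out (3 without PSD1 replicate 6 or empty replicate 5). For V5-PSD1 over empty 0 were called within series 5. For pdr3Δ PSD1 over empty 1 was called within series 5, and 2 to 5 with 1 left out (2 without empty replicate 3 or deletion replicate 4). For PSD1 over V5-PSD1 2 were called by DESeq2, by limma on log2(FPKM + 0.1) and on log2(FPKM + 1), with the replicate block and within series 6, 3 with the library set block, and 1 to 4 with 1 left out (4 without PSD1 replicate 3; 2 without PSD1 replicate 1 or 6, V5-PSD1 replicate 1 or deletion replicate 3).

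Signs that turned in pdr3Δ PSD1 over PSD1 were SNF1 (−0.014), MIG1 (0.011) and CAT8 (−0.046) in series 6 and FBP1 (0.045) in series 5. In PSD1 over empty they were SNF1 (−0.015, series 5) and ADH2 (−0.066 with the library set block, −0.061 and −0.06 with limma at 0.1 and 1, −0.088 with the replicate block, −0.186 in series 5). In V5-PSD1 over empty they were MIG1 (−0.033 with limma at both pseudocounts, −0.022 in series 5) and, in series 6, MIG3 (−0.006), ADR1 (0.033) and CAT8 (0.096). In pdr3Δ PSD1 over empty, series 6, ADH2 was at 0.009 and PCK1 at 0.642, and in PSD1 over V5-PSD1, series 5, SNF1 was at −0.024.

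With 1 library left out, the signs that turned had these ranges. In pdr3Δ PSD1 over PSD1 SNF1 ran from −0.001 to 0.052, MIG1 from −0.049 to 0.019, CAT8 from −0.101 to 0.196, ADH2 from −0.461 to 0.061 and FBP1 from −0.769 to 0.059. In PSD1 over empty ADH2 ran from −0.175 to 0.217. In V5-PSD1 over empty CAT8 ran from −0.118 to 0.015 and FBP1 from −0.051 to 0.647. In pdr3Δ PSD1 over empty ADH2 ran from −0.442 to 0.041, FBP1 from −0.345 to 0.631 and PCK1 from −0.753 to 0.091. In PSD1 over V5-PSD1 SNF1 ran from −0.008 to 0.049 and FBP1 from −0.061 to 0.512.

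Over all genes, 1 rose and 25 fell in pdr3Δ PSD1 over PSD1, against 7 and 35 with DESeq2, 5 and 29 with the library set block, 0 and 12 with 2 groups only, 0 and 4 in series 5, and 6 and 23 without PSD1 replicate 5. In PSD1 over empty 1863 rose and 1689 fell, against 1041 and 1000 in series 5. In V5-PSD1 over empty 159 rose and 31 fell, against 13 and 1 in series 5, 367 and 88 with the library set block, 81 and 28 with 2 groups only, 238 and 55 with the replicate block, 89 and 49 with limma, and 89 and 18 to 316 and 67 without V5-PSD1 replicate 1, 2, 3 or 4 or empty replicate 3. In pdr3Δ PSD1 over empty 1640 rose and 1344 fell, against 479 and 281 in series 5, and in PSD1 over V5-PSD1 1277 and 1264, against 313 and 287. Same-numbered libraries of the pdr3Δ PSD1 and PSD1 groups correlated at 0.088 to 0.609 in their deviations from the group means (5 of 6 pairs over 0.1, and 5 of 6 libraries best with their own number), and those of series 5 share a run of library numbers. This is a hint of pairing from the data; the model has no block because the labels do not state one and 1 pair was under 0.1. With the replicate block MIG2 in that comparison had an adjusted p of 0.0955.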
